A study of Mus musculus with 3 samples.

Results

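Bone morphogenetic protein (BMP) signaling was followed through 10 genes, chosen by symbol among the 32285 features of each library: the ligands Bmp2, Bmp4, Bmp6, Bmp7 and Gdf10, the antagonist Grem1, the receptors Bmpr1a and Bmpr2, and the target genes Id1 and Id3. All 10 were found. Their unique molecular identifiers (UMIs, each standing for 1 captured transcript) were summed over the cells of each cell class in each library and are given as counts per 1000000 UMIs of that class (CPM). Because the assay counts transcript ends, a level is compared for the same gene between classes or libraries and never between genes.

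The cells came from damaged muscle of mice, processed as 3 single-cell libraries: young mice given PBS, old mice given PBS, and old mice given rMETRNL, the recombinant form of the secreted protein meteorin-like. All 3 groups carried the same injury, a BaCl2 injection into the tibialis anterior of C57/BL6J mice, and cells were taken on day 4 after it. According to the methods, rMETRNL or PBS was injected into the muscle, and the muscles of several animals were pooled within each group, so that 1 library stands for each group and the spread between animals cannot be seen. Old PBS over young PBS is called the age contrast and old rMETRNL over old PBS the treatment contrast. Both rest on the same old PBS library, so a value that is high or low in that library alone moves both contrasts in opposite directions.

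BMPs are secreted ligands of the transforming growth factor beta superfamily. A ligand binds a complex of type I and type II receptors, the receptors phosphorylate SMAD1, SMAD5 and SMAD9, and these move with SMAD4 to the nucleus, where the Id genes are among the best known direct targets. Secreted antagonists such as gremlin 1 bind the ligands outside the cell. In skeletal muscle the pathway is known for keeping satellite cell progeny dividing, and in vessels for its role in endothelial growth and quiescence.

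In GENCODE coordinates on mm10, all 10 are protein-coding genes. Bmp2 (ENSMUSG00000027358) lies at chr2:133552159-133562885, Bmp4 (ENSMUSG00000021835) at chr14:46383520-46390669, Bmp6 (ENSMUSG00000039004) at chr13:38345107-38500302, Bmp7 (ENSMUSG00000008999) at chr2:172868012-172940321 and Gdf10 (ENSMUSG00000021943) at chr14:33923587-33937983. Grem1 (ENSMUSG00000074934) lies at chr2:113746164-113758646, Bmpr1a (ENSMUSG00000021796) at chr14:34410734-34503341, Bmpr2 (ENSMUSG00000067336) at chr1:59763400-59879014, Id1 (ENSMUSG00000042745) at chr2:152736251-152737410 and Id3 (ENSMUSG00000007872) at chr4:136143497-136145755. Bmp4, Bmp7, Grem1 and Bmpr1a lie on the minus strand.

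For 7 of the 10 genes a RefSeq promoter was given (assembly GRCm38.p6). The 250 bases before the start are printed for 3 of them whose window lies outside any annotated GENCODE gene: Bmp4, a ligand past 1.5-fold in the treatment contrast in both endothelial-like and FAP-like cells, and Gdf10 and Grem1, whose UMIs were mostly in FAP-like cells. They run 5′ to 3′ on the gene's own strand. Capitals mark GGCGCC, the palindromic GC-rich core of BMP-responsive elements, which reads the same on both strands.
Bmp4, chr14:46390670-46390919, minus strand: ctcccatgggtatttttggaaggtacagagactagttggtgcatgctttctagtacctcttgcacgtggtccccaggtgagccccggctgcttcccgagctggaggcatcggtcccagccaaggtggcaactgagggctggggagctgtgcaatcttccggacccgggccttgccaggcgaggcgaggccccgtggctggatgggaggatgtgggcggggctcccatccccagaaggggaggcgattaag
Gdf10, chr14:33923337-33923586, plus strand: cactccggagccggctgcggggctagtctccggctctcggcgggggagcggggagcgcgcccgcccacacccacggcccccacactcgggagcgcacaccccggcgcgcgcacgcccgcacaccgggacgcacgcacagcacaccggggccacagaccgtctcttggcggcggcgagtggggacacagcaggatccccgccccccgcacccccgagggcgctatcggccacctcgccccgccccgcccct
Grem1, chr2:113758649-113758898, minus strand: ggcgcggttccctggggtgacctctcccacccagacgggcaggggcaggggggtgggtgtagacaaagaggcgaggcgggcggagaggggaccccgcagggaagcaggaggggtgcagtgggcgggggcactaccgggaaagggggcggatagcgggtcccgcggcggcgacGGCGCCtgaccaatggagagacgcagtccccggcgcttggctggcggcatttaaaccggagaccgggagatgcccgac
GGCGCC was found 1 time in the Grem1 window, starting at base -78 from the start site, and in neither of the other windows printed. Among the other 4 windows it was found 1 time each in Bmpr1a, at -198, and Bmpr2, at -105, and not in Bmp6 or Id3. Of 32851 promoter windows of the same 250 bases, 9.59% held it. A match of these letters is a description and not a binding site.

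The 3 libraries held 12168, 12568 and 14012 barcodes in the order young PBS, old PBS, old rMETRNL, which is the order of every set of 3 values below, and 218059089, 179295668 and 228966697 UMIs. After cell filters and removal of doublet calls, 10328, 10029 and 11372 cells were kept. Between 58 and 80 barcodes were shared by each pair of libraries. Clustering gave 27 clusters, of which those with enough markers were named as 13 classes. The classes compared here were FAP-like cells (fibro-adipogenic progenitors, the stromal cells of muscle; 1759, 1475 and 1814 cells), endothelial-like cells (685, 941 and 1022), pericyte/smooth muscle-like cells (83, 103 and 84), tenocyte-like cells (204, 129 and 230), MuSC/myoblast-like cells (the stem cells of muscle and the myoblasts they give; 348, 176 and 358) and macrophage/monocyte-like cells (4301, 4156 and 4312). In each library every marker of these 6 classes was detected in at least 10% of the cells of its class. A cluster led by Spp1 and Gpnmb, with 1592, 1534 and 1830 cells, was kept apart because 1 of its 10 leading genes, Mmp8, was on the neutrophil list and none was on the macrophage list. The libraries differed in depth within classes: endothelial-like cells had a median of 11221, 3865 and 6801 UMIs, whereas FAP-like cells had 26170, 22181 and 24633.5.

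FAP-like and endothelial-like cells held most of the ligand UMIs (plot of UMI sources). FAP-like cells alone held 97.6%, 96.5% and 95.9% of Gdf10 UMIs and 71.8%, 93.3% and 88.5% of Grem1 UMIs. They also held 71.9%, 75.8% and 71.5% of the UMIs of Bmpr1a. They held 49.2%, 53.2% and 49.0% of Id3 UMIs. Id1 UMIs were spread over MuSC/myoblast-like, endothelial-like, FAP-like (17.3%, 16.4% and 13.0%) and myocyte-like cells. These shares depend on how many cells of each class were captured as well as on the level per class. The share of Bmp2 UMIs from FAP-like cells was 31.5%, 47.0% and 24.3% in the order given above, and that from endothelial-like cells was 45.3%, 26.7% and 47.2%. In old PBS alone, FAP-like cells were thus the larger source of Bmp2.

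**Figure D1:**
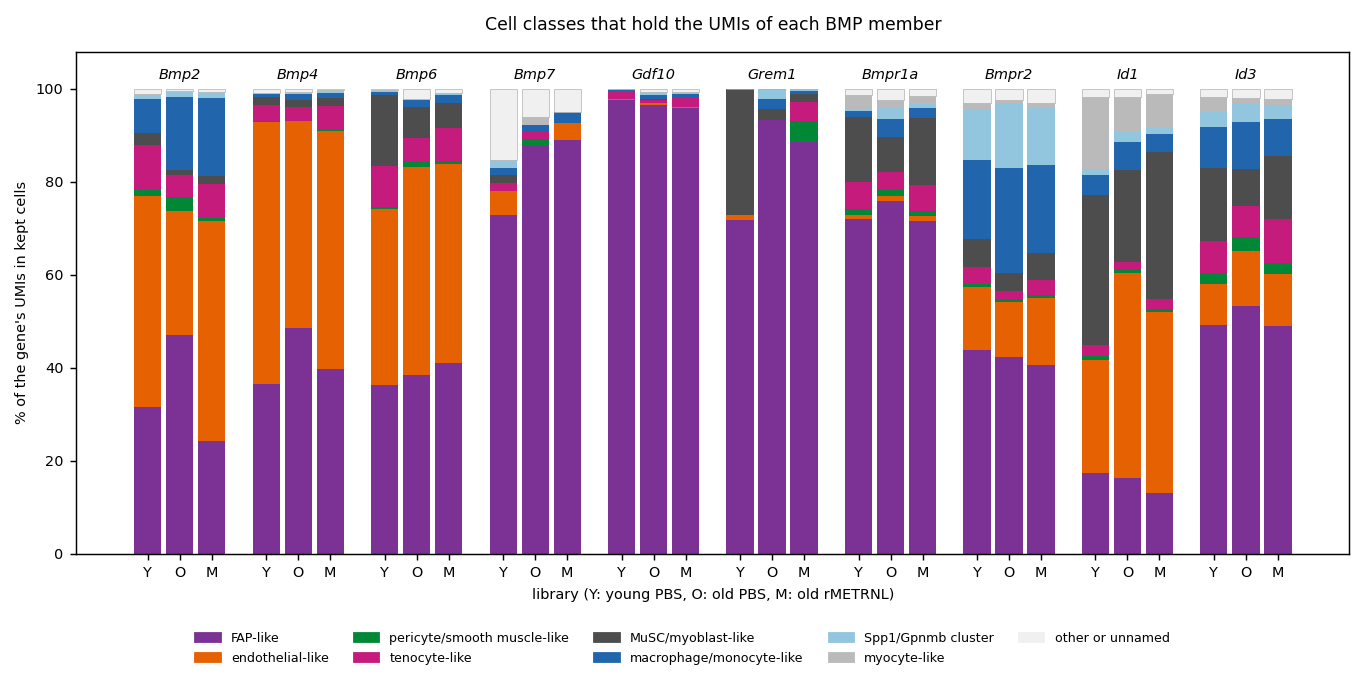
Stacked bars give, for each BMP gene and library (Y, young PBS; O, old PBS; M, old rMETRNL), the percentage of the gene's UMIs in kept cells that each cell class held; pale grey is the remainder. Gdf10, Grem1, Bmp7 and Bmpr1a are mostly FAP-like, Bmp2, Bmp4 and Bmp6 are shared by FAP-like and endothelial-like cells, and the Bmp2 share of FAP-like cells is largest in old PBS (47.0%).

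A ratio between libraries was counted as a difference when it was at or past 1.5-fold in either direction and the gene had at least 50 UMIs in the class over the 3 libraries. There is no test between groups with 1 library each. All intervals are 95% intervals of counting error alone, exact Poisson for levels and exact conditional on the summed counts for ratios, and they take no account of UMIs being unevenly spread over cells or of animals. Of 42 pairs of gene and class that could be compared in the 6 classes, 13 were past 1.5-fold in the age contrast and 9 in the treatment contrast. Beside these, the share of all genes past it lay, by class, between 10.7% and 28.5% for age. For treatment this share lay between 9.16% and 19.5%. The median log2 ratio over all genes of a class lay between -0.07 and 0.07 in every class and contrast.

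Bmp2, a ligand of cartilage, bone and vessel biology, was highest in endothelial-like cells in young PBS and old rMETRNL. There young PBS stood at 180 CPM (172 to 188), old PBS at 137 CPM (128 to 146) and old rMETRNL at 203 CPM (195 to 212). The old PBS value was the lowest, with ratios for age of 0.762 (0.703 to 0.825) and for treatment of 1.49 (1.38 to 1.6), so neither reached 1.5-fold. In cells of at least 5000 UMIs the ratios were 0.873 and 1.34. Without the 3 cells with the most Bmp2 UMIs in each library the treatment ratio was 1.597 (1.47 to 1.735), and it was past 1.5-fold in 5 of 10 settings of filters, clustering and scaling, between 1.41 and 1.58. In old PBS pericyte/smooth muscle-like cells had the highest level. Tenocyte-like and pericyte/smooth muscle-like cells, the next in order in young PBS and old rMETRNL, had intervals that overlapped there. Then came FAP-like cells, and the myeloid classes lay lower still.

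In FAP-like cells the order of the libraries was the opposite. For Bmp2, young PBS stood at 27.0 CPM (25.6 to 28.5), old PBS at 47.6 CPM (45.3 to 49.97) and old rMETRNL at 25.8 CPM (24.3 to 27.3). The old PBS library stood above both others, whose intervals overlapped each other. The age ratio was 1.76 (1.64 to 1.90) and the treatment ratio 0.541 (0.502 to 0.583). Over 10 settings of filters, clustering and scaling the first stayed between 1.63 and 1.86 and the second between 0.483 and 0.588.

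Bmp4, a close relative of Bmp2, was also highest in old PBS in FAP-like cells. Its levels were 13.0 CPM (12 to 14.0), 23.8 CPM (22.2 to 25.5) and 13.6 CPM (12.6 to 14.7), with ratios of 1.84 (1.65 to 2.04) for age and 0.570 (0.513 to 0.633) for treatment. Again old PBS was above both other libraries and those 2 overlapped. In endothelial-like cells, where Bmp4 was highest in each library, it was at 92.7 CPM (87.0 to 98.7), 111 CPM (103 to 119) and 70.9 CPM (66.1 to 75.9). Here the old rMETRNL library was lowest, with a treatment ratio of 0.638 (0.577 to 0.706), while the age ratio of 1.20 was inside 1.5-fold. Weighting every cell equally, in place of summing UMIs, brought the treatment ratio to 0.775. Macrophage/monocyte-like cells held 0.377 CPM of Bmp4 or less in any library.

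RNA from endothelial cells in other droplets was gauged with the endothelial marker list. In FAP-like cells these markers stood at a median of 0.268%, 0.391% and 0.294% of their level in endothelial-like cells. The same share of endothelial Bmp2 comes to 0.482, 0.535 and 0.596 CPM, and of endothelial Bmp4 to 0.248, 0.434 and 0.208 CPM. The part of such RNA in the differences between libraries was not tested.

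Bmp6, a ligand known from the liver, where endothelial cells make it for iron control, was highest in endothelial-like cells in each library. It stood at 16.0 CPM (13.7 to 18.6), 31.7 CPM (27.6 to 36.3) and 26.0 CPM (23.1 to 29.1). Young PBS was the lowest library, the age ratio was 1.98 (1.61 to 2.44), and in cells of at least 5000 UMIs it was 1.52. In FAP-like cells the levels were 3.32, 5.41 and 6.11 CPM and the age ratio was 1.63 (1.31 to 2.02). In MuSC/myoblast-like cells Bmp6 was at 5.72, 5.83 and 3.21 CPM, the last from 39 UMIs, and the treatment ratio was 0.551 (0.335 to 0.913).

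Bmp7, best known from kidney and eye development, was sparse. FAP-like cells held 43, 57 and 72 of its 59, 65 and 81 UMIs, at 0.875, 1.68 and 1.52 CPM. The age ratio was 1.92 (1.27 to 2.93) and the treatment ratio 0.904. Outside FAP-like cells no class had more than 7 UMIs, the most being the 7 in T/NK-like cells of young PBS. In CPM of the class, however, FAP-like cells were not the highest. T/NK-like cells stood at 4.15, 1.26 and 2.31 CPM, from 7, 2 and 2 UMIs. Schwann/glial-like cells stood at 10.8, 6.64 and 4.23 CPM, from 2, 2 and 1 UMIs.

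Gdf10, also called BMP3b, was at 35.9, 31.6 and 30.3 CPM in FAP-like cells and differed by less than 1.5-fold in both contrasts, with ratios of 0.883 and 0.959. Tenocyte-like cells held 28, 7 and 34 Gdf10 UMIs. The age ratio of 0.504 (0.186 to 1.18) had an interval that took in 1, and the treatment ratio was 2.60 (1.13 to 6.94). When cells were gated on markers the treatment ratio was 1.38, inside 1.5-fold. Leaving out the 3 cells with the most Gdf10 UMIs in each library took the old PBS tenocyte-like cells to 0 UMIs.

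Grem1, which codes for gremlin 1, an antagonist of BMP2, BMP4 and BMP7, had 61, 42 and 154 UMIs in FAP-like cells, or 1.24, 1.24 and 3.26 CPM. The treatment ratio was 2.62 (1.85 to 3.79) and the age ratio 0.999 (0.658 to 1.5). The UMIs came from 32, 7 and 21 cells, and the 3 cells with the most held 36.1%, 85.7% and 76.0% of them. Without those 3 cells in each library, the levels were 0.795, 0.178 and 0.784 CPM, which puts old PBS below both others, with ratios of 0.223 for age and 4.42 for treatment. The counting intervals therefore understate the error of this gene, and its place among the libraries rests on a handful of cells. MuSC/myoblast-like cells had 23, 1 and 3 Grem1 UMIs.

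Over all 10 genes in FAP-like cells, 4 were past 1.5-fold in the age contrast, all higher in old PBS (Bmp2, Bmp4, Bmp6 and Bmp7), where 13.9% of all 14442 genes were past it in either direction. In the treatment contrast 3 were past it, Bmp2 and Bmp4 lower and Grem1 higher in old rMETRNL, against 9.16% of all genes. In endothelial-like cells 2 of 7 genes with enough UMIs, Bmp6 and Id1, were past 1.5-fold in the age contrast, both higher in old PBS, against 17.6% of all genes. In their treatment contrast 1 of 7, Bmp4, was past it, against 13.4% of all genes. The 10 genes were chosen with earlier results of these data known, so these counts are descriptions and the shares of all genes are no test of them.

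**Figure D2:**
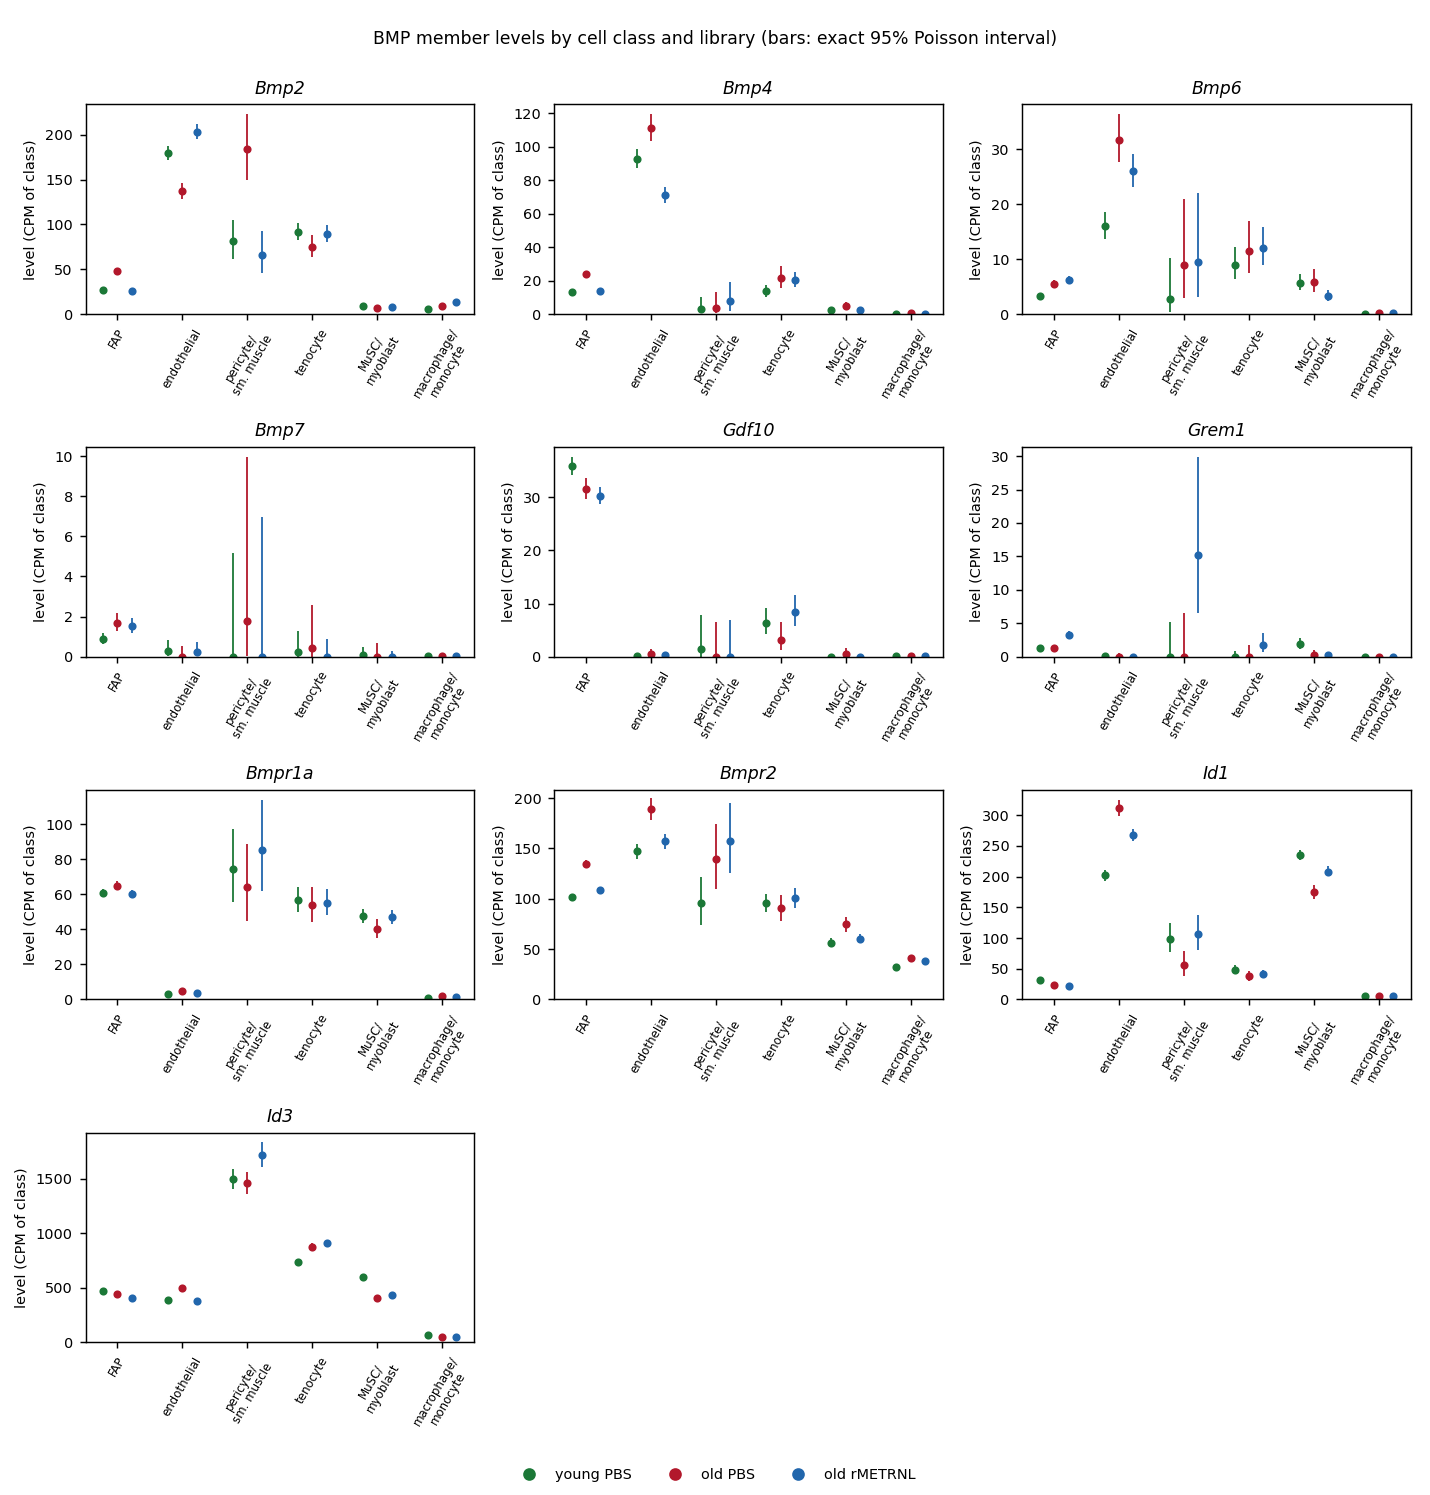
Each panel gives 1 BMP gene, with its level in CPM of the class on a linear axis from 0 for 6 cell classes; points are the 3 libraries and bars exact 95% Poisson intervals. In FAP-like cells Bmp2 and Bmp4 are highest in old PBS (47.6 and 23.8 CPM), and in endothelial-like cells Bmp2 is lowest there (137 CPM).

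FAP-like cells consisted of 2 clusters whose proportions differed between libraries. Cluster 8, led by genes that include Pi16 and Sema3c, held 13.4%, 25.6% and 22.3% of FAP-like cells, and cluster 1, led by Sfrp1 and Sfrp2, held the rest. The higher Bmp2 and Bmp4 of old PBS was present in both. In cluster 1, Bmp2 was at 25.4, 44.8 and 23.9 CPM and Bmp4 at 12.4, 20.4 and 12.3 CPM. In cluster 8, Bmp2 was at 42.4, 62.6 and 35.9 CPM and Bmp4 at 18.6, 42.6 and 20.4 CPM. The Bmp2 age ratio within cluster 8 was inside 1.5-fold.

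Bmp6 and Bmp7 behaved differently. Cluster 8 held 37, 57 and 71 of the Bmp7 UMIs of FAP-like cells, and its Bmp6 level of 16.2, 18.9 and 25.5 CPM was above the 1.94, 2.90 and 2.51 CPM of cluster 1. Within cluster 8 the age ratios were 1.17 (0.859 to 1.59) for Bmp6 and 1.39 (0.900 to 2.16) for Bmp7, both with intervals that took in 1. Within cluster 1 the age ratio of Bmp6 was 1.5 (1.10 to 2.05). The part of the larger share of cluster 8 in old PBS in the class ratios was not tested. Gdf10 was within 1.5-fold over the class but at 28.8, 17.7 and 21.2 CPM in cluster 1, an age ratio of 0.614 (0.553 to 0.681), and at 101, 107 and 79.3 CPM in cluster 8. Grem1 lay almost wholly in cluster 1, with 61, 41 and 151 UMIs.

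**Figure D3:**
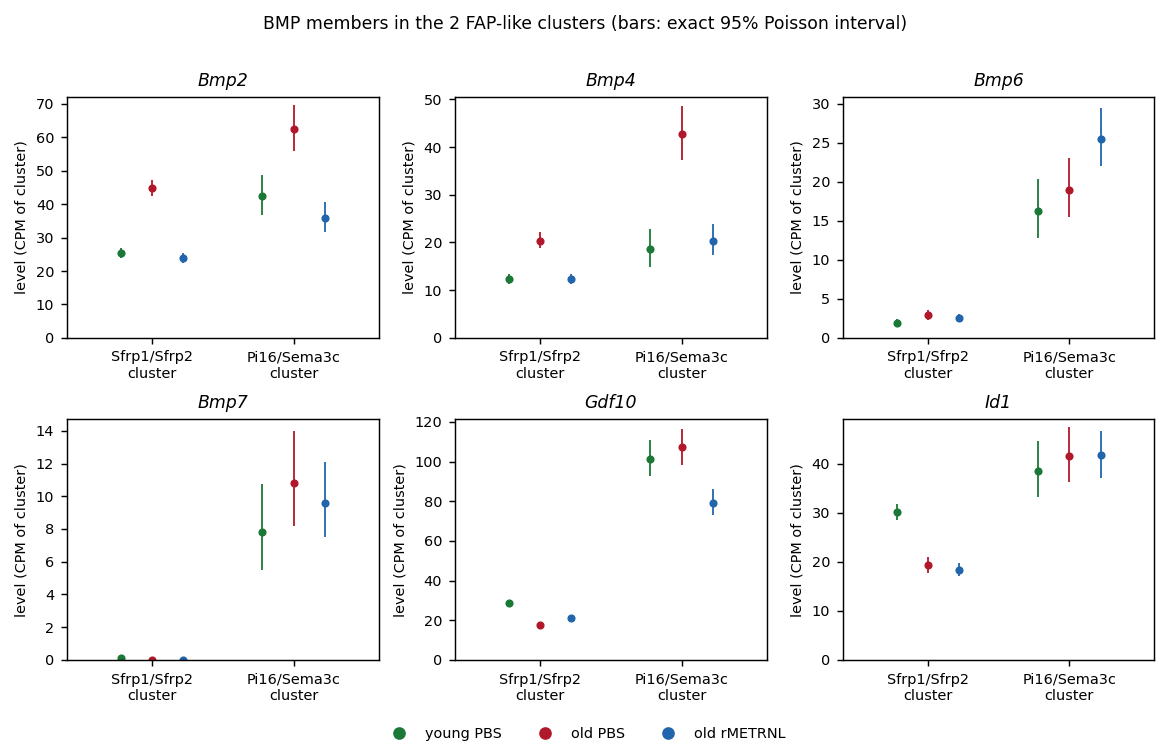
Levels in CPM of the cluster (linear axes from 0) of BMP genes in the 2 FAP-like clusters, with 1 point per library and exact 95% Poisson intervals as bars. Bmp4 is highest in old PBS in cluster 1 (20.4 CPM) and in cluster 8 (42.6 CPM), and Bmp6 is higher in cluster 8 than in cluster 1 in each library.

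Endothelial-like cells also comprised 2 clusters. Cluster 5, led by genes that include Cldn5 and Gpihbp1, held 77.4%, 87.1% and 84.4% of them, and cluster 15 was led by genes that include Selp, Sele and Ackr1, which are known from venules. Bmp2 and Bmp4 divided between them in opposite directions. Bmp2 was at 217, 166 and 239 CPM in cluster 5 and at 16.1, 18.2 and 20.3 CPM in cluster 15, whereas Bmp4 was at 81.2, 97.0 and 64.0 CPM in cluster 5 and at 143, 168 and 106 CPM in cluster 15. The lower Bmp2 of old PBS was seen in cluster 5 and not in cluster 15, and the lower Bmp4 of old rMETRNL was seen in both. Among endothelial-like cells with at least 2 UMIs over the arterial genes Sox17, Gja4 and Gja5, Bmp2 was at 217, 194 and 259 CPM, against 69.7, 54.6 and 75 CPM in those with none.

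**Figure D4:**
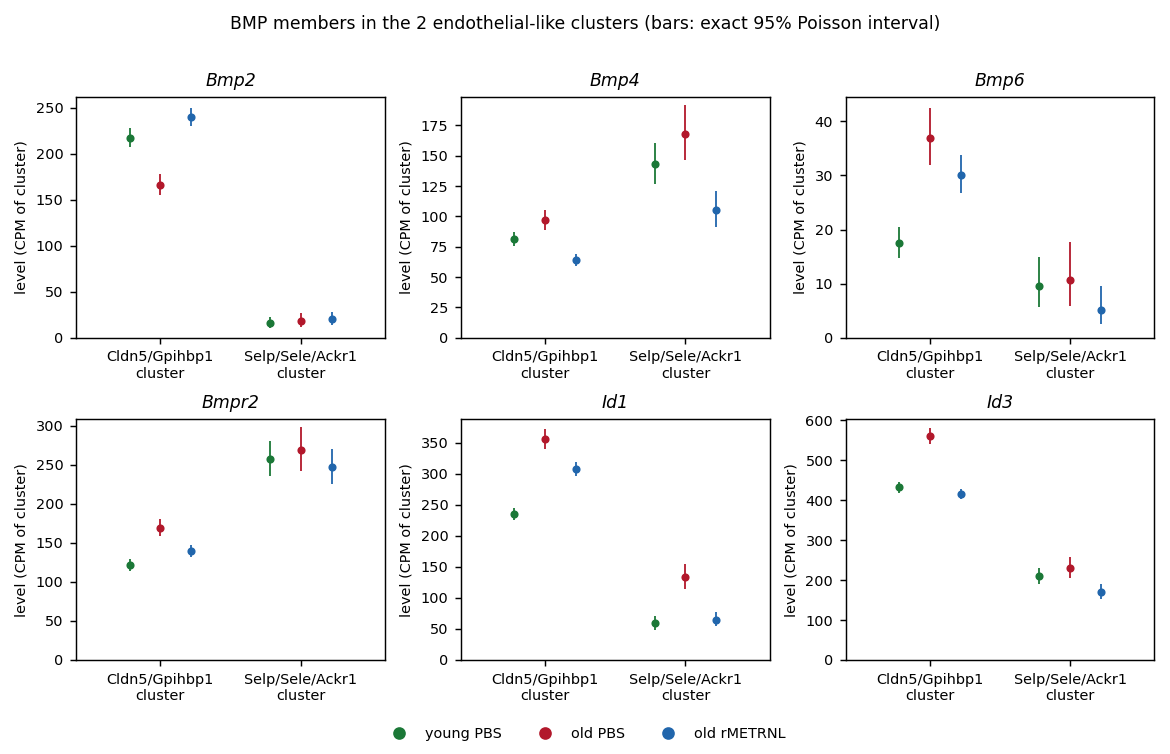
Levels in CPM of the cluster (linear axes from 0) of BMP genes in the 2 endothelial-like clusters, with 1 point per library and exact 95% Poisson intervals as bars. Bmp2 and Id1 are higher in cluster 5, and Bmp4 and Bmpr2 are higher in cluster 15, in each library.

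Macrophage/monocyte-like cells held less Bmp2 but differed between libraries. Young PBS stood at 5.07 CPM (4.52 to 5.67), old PBS at 9.16 CPM (8.40 to 9.97) and old rMETRNL at 13.3 CPM (12.5 to 14.3), with ratios of 1.81 (1.57 to 2.09) and 1.46 (1.31 to 1.63). Most of it lay in cluster 4, led by Cd163, F13a1 and Lyve1, at 15.7, 31.4 and 37.5 CPM. This cluster held 21.2%, 24.9% and 30.7% of the class. Within cluster 4 the treatment ratio was 1.20 (1.05 to 1.36), and in each of the other 4 clusters of the class it was below 1, between 0.384 and 0.752, with an interval that took in 1 in 3 of the 4. The age ratio was above 1 in all 5, from 1.29, whose interval took in 1, to 3.17. The part of the cluster shares in the pooled treatment ratio was not tested. The Spp1/Gpnmb cluster stood at 1.29, 1.16 and 1.68 CPM, and endothelial marker RNA in macrophage/monocyte-like cells corresponded to 0.377, 0.464 and 0.598 CPM of Bmp2. In this class 2 of 5 genes with enough UMIs were past 1.5-fold in the age contrast, Bmp2 and Bmpr1a, against 13.2% of all genes, and 0 of 5 in the treatment contrast, against 10.9%. The treatment ratio of Bmpr1a, 0.6995 (0.521 to 0.937), was past 1.5-fold in 6 of 10 settings of filters, clustering and scaling, between 0.560 and 0.719.

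The share of cells with a UMI was also highest in old PBS for both ligands in FAP-like cells and lowest there for Bmp2 in endothelial-like cells. After thinning each cell to 2000 UMIs, Bmp2 was found in 4.15% (3.27 to 5.19), 9.16% (7.73 to 10.8) and 3.98% (3.12 to 4.99) of FAP-like cells, with exact binomial intervals. Without thinning the shares were 23.5%, 33.6% and 26.9%. In endothelial-like cells thinned shares were 13.8%, 9.54% and 13.1%, after 49, 218 and 207 cells below 2000 UMIs were left out, and in the Spp1/Gpnmb cluster, taken as background (median depths of 18385, 20282.5 and 19470.5 UMIs), 0.252%, 0.198% and 0.166%. For Bmp4 the thinned shares of FAP-like cells were 2.79%, 5.26% and 2.80% (19.8%, 26.9% and 18.7% without thinning), against 0 of 1585, 1 of 1517 and 0 of 1811 cells of the Spp1/Gpnmb cluster.

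Bmpr1a codes for a type I receptor that binds BMP2 and BMP4 with high affinity. It stood at 37.0 to 85.2 CPM in stromal and myogenic classes and was low in endothelial-like and myeloid cells. In FAP-like cells it stood at 60.7 CPM (58.5 to 62.9), 64.9 CPM (62.3 to 67.7) and 60.1 CPM (57.9 to 62.3). The 3 libraries were within 1.5-fold of each other, with ratios of 1.07 for age and 0.925 for treatment. Pericyte/smooth muscle-like cells had 74.5, 64.3 and 85.2 CPM, tenocyte-like cells 56.7, 53.7 and 55.2 CPM, MuSC/myoblast-like cells 47.6, 40.3 and 47.1 CPM and myocyte-like cells 37.0, 41.6 and 39.3 CPM. Endothelial-like cells had 3.39, 4.79 and 3.70 CPM, from 32 to 43 UMIs a library.

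In macrophage/monocyte-like cells Bmpr1a was at 0.839 CPM (0.625 to 1.10), 1.92 CPM (1.58 to 2.31) and 1.34 CPM (1.07 to 1.66), an age ratio of 2.29 (1.63 to 3.25) from 51 and 112 UMIs. FAP marker RNA in these cells corresponded to 0.254, 0.340 and 0.304 CPM of Bmpr1a. Thinned to 2000 UMIs, 0.236%, 0.423% and 0.214% of these cells had a Bmpr1a UMI, which is 10, 17 and 9 cells, against 11.3%, 12.3% and 11.8% of FAP-like cells. In the Spp1/Gpnmb cluster the shares were 0.126%, 0.396% and 0.110%. Its Bmpr1a level, from 15, 77 and 34 UMIs, was also highest in old PBS, at 0.473, 2.30 and 0.876 CPM, with ratios of 4.86 (2.77 to 9.11) for age and 0.381 (0.247 to 0.578) for treatment.

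Bmpr2, the type II receptor of the BMPs, was found in every class compared. It was highest in endothelial-like cells in young PBS and old PBS, at 147 CPM (140 to 154) and 189 CPM (179 to 200), with 157 CPM (150 to 164) in old rMETRNL. In FAP-like cells it was at 101.6, 134 and 109 CPM, in MuSC/myoblast-like cells at 56.2, 74.5 and 60.3 CPM and in macrophage/monocyte-like cells at 32.0, 41.6 and 38.2 CPM. In these 4 classes the old PBS value was the highest, and the age ratios were 1.29, 1.32, 1.33 and 1.30, all inside 1.5-fold. In the other 2 classes it was not the highest: tenocyte-like cells had 95.6, 90.4 and 101 CPM and pericyte/smooth muscle-like cells 95.6, 139 and 157 CPM, also inside 1.5-fold in both contrasts. Endothelial cluster 15 had more of it than cluster 5, at 258, 269 and 247 CPM against 122, 169 and 139 CPM.

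Id1 and Id3 code for helix-loop-helix proteins without a DNA-binding domain, which hold back basic helix-loop-helix factors such as MyoD. Id1 in endothelial-like cells was at 202 CPM (194 to 211), 312 CPM (298 to 325) and 268 CPM (258 to 277). Old PBS was highest and young PBS lowest, and the ratios were 1.54 (1.45 to 1.64) for age and 0.859 for treatment. In cells of at least 5000 UMIs the age ratio was 1.38, inside 1.5-fold, beside the lower median depth of this class in old PBS given above. In cluster 15 Id1 was at 58.9, 134 and 65.1 CPM, 2.28 (1.79 to 2.90) for age and 0.486 (0.383 to 0.614) for treatment as ratios, and in cluster 5 at 235, 355 and 308 CPM.

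In the other 5 compared classes Id1 was lower in old PBS than in young PBS. The tenocyte-like age ratio, 0.777 (0.595 to 1.007), had an interval that took in 1. The macrophage/monocyte-like one was 0.801 (0.685 to 0.937), and 0.972 when cells were gated on markers. FAP-like cells had 31.0 CPM (29.5 to 32.6), 22.8 CPM (21.3 to 24.5) and 22.0 CPM (20.7 to 23.4), so that the age ratio was 0.736 (0.674 to 0.803) and both old libraries overlapped. This lay in cluster 1, at 30.2, 19.4 and 18.4 CPM (age ratio 0.641), whereas cluster 8 had 38.6, 41.7 and 41.7 CPM. MuSC/myoblast-like cells had 235 CPM (226 to 244), 174 CPM (163 to 186) and 208 CPM (200 to 217), ratios of 0.741 and 1.20. The FAP-like and MuSC/myoblast-like age ratios of Id1 were inside 1.5-fold.

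The 5 MuSC/myoblast-like clusters differed widely in Id1. Cluster 20, led by Asb5, Myf5 and Pax7, had the lowest level in each library, at 77.7, 58.2 and 79.7 CPM, and held 29.0%, 41.5% and 24.3% of the class. Cluster 26, also led by Myf5 and Pax7, had 680, 347 and 246 CPM from 41, 14 and 50 cells. Cluster 21, led by histone genes, had 219, 264 and 236 CPM and an age ratio of 1.20 (1.07 to 1.36). In the other 4 clusters Id1 was lower in old PBS than in young PBS, with age ratios of 0.749 in cluster 20, 0.725 in cluster 22, 0.609 in cluster 24 and 0.51 in cluster 26, and intervals that left out 1. The part of the cluster shares in the class ratio was not tested.

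Pericyte/smooth muscle-like cells had the highest Id3 of the 6 classes, at 1494, 1459 and 1717 CPM. Id3 was at 739, 872 and 909 CPM in tenocyte-like cells, at 465, 438 and 405 CPM in FAP-like cells and at 391, 496 and 375 CPM in endothelial-like cells, all within 1.5-fold in both contrasts. MuSC/myoblast-like cells had 602 CPM (588 to 616), 410 CPM (393 to 427) and 435 CPM (424 to 447), an age ratio of 0.680, inside 1.5-fold, and it was lower in old PBS than in young PBS in each of their 5 clusters. Without the 3 cells with the most UMIs of the gene in each library the age ratios of this class were past 1.5-fold, 0.614 (0.583 to 0.647) for Id3 and 0.633 (0.583 to 0.687) for Id1, and over 10 settings they lay between 0.509 and 0.781 and between 0.495 and 0.751. Macrophage/monocyte-like cells had 67.7, 48.3 and 50.1 CPM, an age ratio of 0.715.

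The remaining differences rested on few UMIs. In pericyte/smooth muscle-like cells Bmp2 had 58, 103 and 35 UMIs, or 81.6 CPM (61.9 to 106), 184 CPM (150 to 223) and 66.3 CPM (46.2 to 92.2), and the ratios were 2.25 (1.62 to 3.17) and 0.360 (0.238 to 0.533). Id1 had 70, 31 and 56 UMIs there, with ratios of 0.562 (0.356 to 0.870) and 1.92 (1.21 to 3.07). A finer clustering left Bmp2 in this class at 0.995 for age and 1.48 for treatment, so the pericyte values depend on where the class is drawn. Each contrast had 2 of 5 genes past 1.5-fold, against 28.5% of all genes for age and 19.5% for treatment.

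In tenocyte-like cells 2 of 8 genes were past 1.5-fold in the age contrast (Bmp4, with levels of 13.7, 21.6 and 20.4 CPM and a ratio of 1.58, and Gdf10), against 15.1% of all genes, and 1 of 8, Gdf10, in the treatment contrast, against 11.9%. Without the 3 cells with the most Bmp4 UMIs in each library the Bmp4 age ratio was 1.30 (0.786 to 2.12). In MuSC/myoblast-like cells 1 of 7 genes was past it for age, Bmp4 at 1.84 (1.06 to 3.19) from 32 and 26 UMIs, against 10.7% of all genes. With a stricter cell filter this ratio was 0.556. For treatment 2 of 7 were, Bmp4 and Bmp6, both lower in old rMETRNL, against 10.2%, and Bmp6 was at 0.813 when cells were gated on markers. Without the 3 cells with the most UMIs the Bmp4 ratios were 1.33 (0.635 to 2.67) and 0.622 (0.299 to 1.33). The Bmp6 treatment ratio was then 0.565 (0.321 to 1.005), and each of these intervals took in 1. With the stricter cell filter the Bmp4 treatment ratio was 0.788, inside 1.5-fold.

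**Figure D5:**
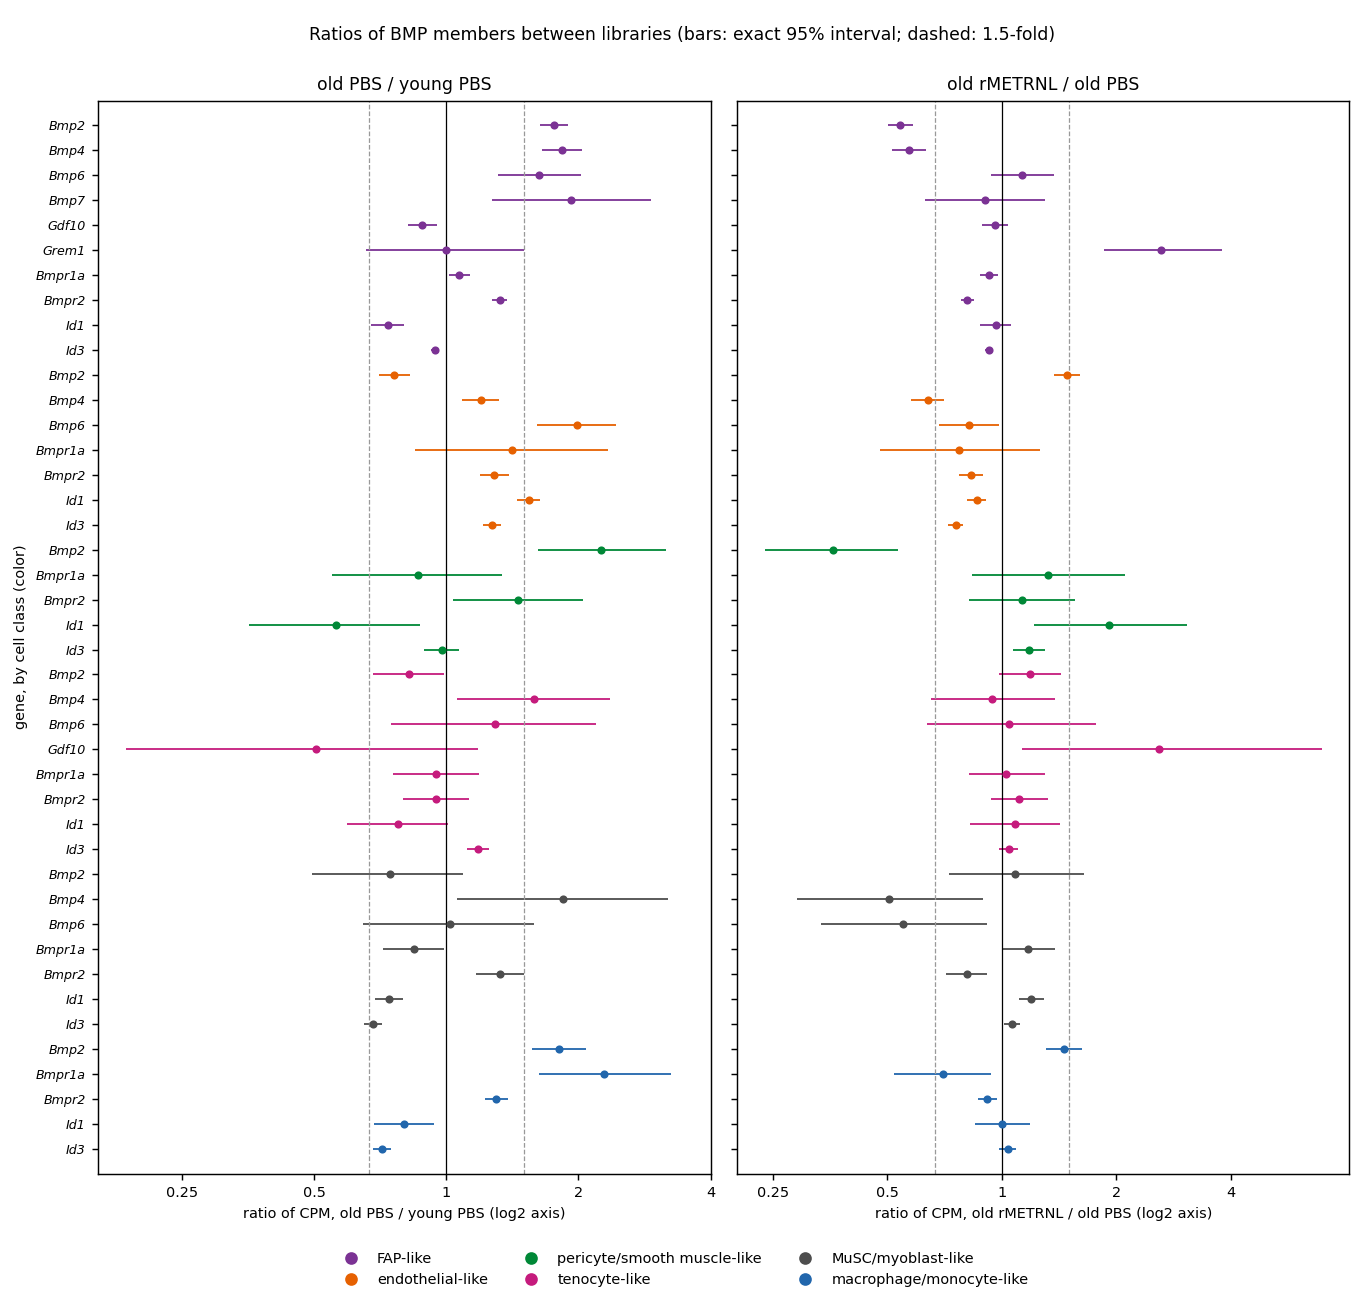
Ratios of CPM on a log2 axis for the age contrast and the treatment contrast, by gene and cell class (color), with exact 95% intervals of counting error as bars and dashed lines at 1.5-fold. In FAP-like cells Bmp2 and Bmp4 lie to the right of 1.5-fold for age (1.76 and 1.84) and to the left for treatment (0.541 and 0.570).

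A further 51 genes of the pathway, in 5 lists, were measured in the same way. Of the other antagonists, 11 of 13 could be compared in FAP-like cells, and 2 were past 1.5-fold for age, both higher in old PBS, against the 13.9% of all genes given above. Nbl1, a secreted binder of BMP ligands, was at 152, 242 and 159 CPM, and its ratios were 1.59 (1.54 to 1.64) for age and 0.655 (0.635 to 0.676) for treatment. Chrd, which codes for chordin, was at 3.48, 6.94 and 4.65 CPM. Fst, which codes for follistatin, was at 196, 273 and 244 CPM, inside 1.5-fold. Of the other ligands, 2 of 5 were higher in old PBS in FAP-like cells, Bmp3 and Bmp5, and for treatment 1 of 5 was higher (Bmp8a) and 1 lower (Gdf6), against the same 13.9% and 9.16%. Bmp5 was at 58.5, 96.3 and 69.9 CPM, and its ratio for age was 1.65 (1.56 to 1.73). Nbl1, Chrd, Fst and Bmp5 were each highest in old PBS, as Bmp2 and Bmp4 were. In tenocyte-like cells Fst went the other way, with 166, 13 and 209 UMIs, or 37.8, 5.97 and 51.3 CPM, and ratios of 0.158 (0.0824 to 0.278) for age and 8.59 (4.92 to 16.4) for treatment.

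Of the other receptors and co-receptors, 9 of 9 could be compared in FAP-like cells, with 1 higher (Acvr2b) and 1 lower (Bmpr1b) in the age contrast, against 13.9% of all genes, and the same genes the other way round in the treatment contrast, against 9.16%. Bmpr1b, another BMP type I receptor, had 196, 62 and 157 UMIs, and its ratios were 0.459 (0.339 to 0.614) for age and 1.81 (1.34 to 2.47) for treatment. Of the signal transducers, 1 of 8 was past 1.5-fold for age in FAP-like cells and 0 of 8 for treatment, against the same 13.9% and 9.16%. That gene, Smad9, had 25 and 29 UMIs in young and old PBS and a ratio of 1.68 (0.952 to 3.0), whose interval took in 1.

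Among other BMP-responsive genes in endothelial-like cells, 3 of 7 were higher in old PBS (Id2, Id4 and Msx1) and 3 of 7 lower in old rMETRNL (Id2, Id4 and Atoh8), against 17.6% and 13.4% of all genes past 1.5-fold in either direction. Id2 was at 39.2, 67.2 and 41.9 CPM and Id4 at 7.91, 21.1 and 10.2 CPM, so that both peaked in old PBS. The median log2 ratio of this list was 0.47 for age and -0.50 for treatment, where the median over all genes of the class was -0.05 and 0.05. Endothelial-like cells had a median depth of 11221, 3865 and 6801 UMIs, and the part of depth in these list values was not tested. In FAP-like cells none of 9 genes of the same list was past 1.5-fold for age, with a median log2 ratio of -0.01, and 2 of 9, Id4 and Hey2, were lower in old rMETRNL, against 13.9% and 9.16% of all genes. In macrophage/monocyte-like cells 1 of 5 genes of the list, Hey1, was higher in old PBS, against 13.2%, and 3 of 5 (Id2, Smad6 and Hey1) were lower in old rMETRNL, against 10.9%, with median log2 ratios of 0.30 and -0.64. Id2 was at 342, 463 and 297 CPM, inside 1.5-fold for age and past it for treatment at 0.642 (0.630 to 0.654).

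Over 28 sums of a class in a library, from 11 classes of at least 100 cells, the genes most like each BMP gene in log2 CPM were found by Pearson's r. The sums of a class share its cell type, so r is a description. For Bmp2 these were Pls3, Mb21d2 and Kazn, for Bmp4 Arhgef28, Tm4sf1 and Ptprm, and for Bmp6 Ptprg, Cdc42ep1 and Mid2, with r from 0.93 to 0.97. For Gdf10 they were Prlr, Gm47163 and Fgf7, for Bmpr1a Prrx1, Igfbp5 and Pard3, and for Bmpr2 Nbeal1 and Tcf4, with r from 0.96 to 0.98. For Id1 they were Cplx2, Tmem47 and Cavin2 and for Id3 Lrch2, Cnn3 and Spaca6, with r from 0.95 to 0.97. The sparse genes had lower values, from 0.82 to 0.90, for Hsd11b1, Prrt1 and Tox with Bmp7 and for Agtr2, Gm10855 and Krt19 with Grem1.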

How the data were processed

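Raw UMI counts per gene and barcode were deposited by the authors as 3 filtered matrices, 1 for each group, each from pooled animals. Per the file headers and the submitters' processing notes, they were made with Cell Ranger (5.0.0 in the headers, 3.1.0 also listed) on mm10. No value was normalized before deposit.

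Barcodes with fewer than 500 genes, or with 10% or more of mitochondrial UMIs, were dropped. Doublets were called by comparison with simulated ones in each library (0.8% expected per 1000 cells) and removed (9.43%, 9.31% and 11.1%). Log-normalized values of 2000 variable genes were reduced to 30 principal components and clustered with the Leiden method (resolution 0.8). Clusters were named from 16 marker lists, with at least 3 detected markers required, and 2.58% to 4.52% of cells stayed unnamed. UMIs were summed by class and library and scaled to the class total. Ratios, intervals and the count at 1.5-fold and 50 UMIs were computed with no test. The ratio computation was tested on simulated data. All 10 BMP genes are named, as are genes of the 5 lists at or past 1.5-fold whose interval leaves out 1. Among the genes of the lists and those most alike in pattern, some are not reported here. The genes and lists were chosen with earlier results of these data known. Alternatives within clusters, at 5000 UMIs or more, with the Spp1/Gpnmb cluster added to macrophages, and without the 3 cells with the most UMIs of a gene were chosen after seeing the data. Python 3.11.15, numpy 2.4.6, scipy 1.17.1, pandas 2.3.3, scikit-learn 1.9.0, igraph 0.11.9, leidenalg 0.10.2 and matplotlib 3.10.9 were used.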

Additional observations from a re-analysis of the deposited data

Results flagged for a closer look

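Id1 differed between young and old PBS in opposite directions in endothelial-like cells, where the ratio was 1.54, and in pericyte/smooth muscle-like cells, where it was 0.562. The difference between these ratios was not tested, since each group is 1 library. The endothelial value was inside 1.5-fold in 2 of 10 settings of filters, clustering and scaling, the lowest 1.49, and was 1.38 in cells of at least 5000 UMIs. The median depth of the whole class was 11221 UMIs in young PBS and 3865 in old PBS. The pericyte value rests on 70 and 31 UMIs. It was past 1.5-fold in 8 of 10 settings, and 0.971 when every cell was weighted equally. Without the 3 cells with the most Id1 UMIs in each library it was 0.617 (0.345 to 1.07), an interval that takes in 1.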

How the results depend on the processing

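No paired analysis was possible because each group has 1 library. The count of gene and class pairs past 1.5-fold was 13 for age and 9 for treatment. By class, 10.7% to 28.5% of all genes were past it for age and 9.16% to 19.5% for treatment. A fold of 2 left 2 and 3, and a minimum of 200 UMIs left 7 and 4. The other alternatives gave 12 to 16 for age and 8 to 13 for treatment. No share of all genes is given for any of these alternatives. Of the ratios past 1.5-fold, those that changed sides of 1 were Bmp4 in MuSC/myoblast-like cells for age (0.556 with a stricter cell filter), Bmp2 in pericyte/smooth muscle-like cells at resolution 1.6 (0.995 for age, 1.48 for treatment) and Id1 in pericyte/smooth muscle-like cells for treatment (0.9753 with a stricter cell filter). The cause was not tested. Bmp2 and Bmp4 in FAP-like cells were past 1.5-fold in both contrasts under all 10 settings of filters, clustering and scaling. Within FAP-like cluster 8 alone the Bmp2 age ratio was inside 1.5-fold. Bmp6 and Bmp7 in FAP-like cells fell to age ratios of 1.42 and 1.49 when cells were gated on markers, as did Bmp2 in macrophage/monocyte-like cells, to 1.43, and Id1 in endothelial-like cells, to 1.49, with doublet calls kept. Pericyte/smooth muscle-like, tenocyte-like and MuSC/myoblast-like cells were the fewest of the 6 classes. With 1 library a group, differences between animals, pools and dissociations cannot be told apart from age or treatment.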
